A study of Mus musculus with 2 samples.

Results

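Collagens are the main structural proteins of the extracellular matrix, and each is built from 3 chains wound into a triple helix. The data describe 39 collagen genes of the 21937 gene features counted by single-cell RNA sequencing in mouse embryos, chosen by symbol from a fixed list. They were grouped by the matrix their products form: 8 fibrillar collagens, 7 cartilage collagens, 9 basement membrane collagens, and 15 other collagens. All 39 symbols were found in the count matrices. Fibrillar collagens assemble into the striped fibers of connective tissue, cartilage collagens build the matrix of the early skeleton, and network-forming type IV collagen underlies epithelia, muscle, and vessels. In the mid-gestation embryo, mesenchyme deposits much of this matrix, and condensing mesenchyme switches on the type II, IX, and XI collagens as it becomes cartilage.

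The cells came from E11.5 embryos carrying an EGFP transgene linked to a DNA barcode, delivered with the piggyBac transposon. All suspensions were transgenic, and no suspension from a non-transgenic embryo was analysed. By the series' design text, F0_8 and F0_9 came from founder embryos, F1_1 came from a single F1 embryo, and F1_mix pooled cells of 2 F1 embryos as an artificial mosaic. By the study's methods, EGFP was driven by the CAG promoter, and the founders were made from C57BL/6J oocytes and sperm. The suspensions were labeled with multiplexing oligos and run together in 1 gene expression library, so the 4 suspensions are the only replicates.

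Levels are given as unique molecular identifiers (UMIs, each marking 1 captured transcript) per 10000 UMIs of all genes outside the mitochondrial genome. Each level is the sum over the cells of an annotated type in a suspension, and errors are the SD over the 4 suspensions. The 5678 cells used held 68972620 gene UMIs, of which 116535 were collagen UMIs. Collagens took 0.193% and 0.165% of these UMIs in the founders F0_8 and F0_9, and 0.165% and 0.154% in F1_1 and F1_mix. In such sums, fewer expressing cells and fewer transcripts per cell cannot be told apart. No cell barcode was shared between suspensions.

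The authors' 16 cell type labels were used as deposited, and marker levels are given beside some of the results they touch. Cells labeled Endodermal Progenitor, Foregut, Hepatocyte, and Midgut were shallow, with medians between 721.5 and 1674 gene UMIs per cell, whereas the remaining 12 types ranged from 10898 to 29076. These 4 shallow types, 1369 cells, were left out of the comparisons of levels between types. Their marker levels were low. All 4 markers of Midgut, among them Cdx1 and Cdx2, were at 0 in Midgut cells, and the summed markers of Foregut and Endodermal Progenitor reached 0.340 and 0.214 UMIs per 10000 in their own cells, with 2 of 4 genes at 0 in each. Mitochondrial transcripts made up a median of 55.9% of gene UMIs in Endodermal Progenitor cells and 23.0% in Hepatocyte cells, against 2.53% in Chondrocyte cells. The authors' clusters drew on transcripts that include collagens, so levels are compared between types as a description, without a test.

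Promoter sequence is shown for 4 members that recur below, the 3 cartilage collagens Col9a1, Col9a2, and Col11a1, which were higher together, and Col1a2, the second chain of type I collagen. Each line holds 100 bases of the plus strand from RefSeq (GRCm38.p6), 5′ to 3′, ending just before the first annotated base of the gene or, for the second Col9a1 line, of an internal start. Col9a1 has 2 annotated starts. The first line precedes its upstream start (chr1:24177489-24177588), and the second precedes a start farther inside the gene (chr1:24195103-24195202). The other windows are chr4:121039466-121039565 for Col9a2, chr3:114030379-114030478 for Col11a1, and chr6:4505518-4505617 for Col1a2. Capitals mark the motif CCAAT, the GC box GGGCGG, the TATA-like motif TATAAA, and the SOX core AACAAT, each on either strand.
Col9a1 upstream start: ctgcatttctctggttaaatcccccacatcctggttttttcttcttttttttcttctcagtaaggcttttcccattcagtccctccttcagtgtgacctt
Col9a1 internal start: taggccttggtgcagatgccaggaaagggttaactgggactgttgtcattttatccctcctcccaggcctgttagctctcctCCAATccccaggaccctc
Col9a2: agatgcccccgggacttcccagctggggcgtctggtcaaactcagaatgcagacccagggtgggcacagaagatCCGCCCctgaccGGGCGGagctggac
Col11a1: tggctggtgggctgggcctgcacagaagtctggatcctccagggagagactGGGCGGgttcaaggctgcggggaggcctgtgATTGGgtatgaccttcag
Col1a2: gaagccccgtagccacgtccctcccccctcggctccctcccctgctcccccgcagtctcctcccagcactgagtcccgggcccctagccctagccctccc
Over the 250 bases before the start, on both strands, GGGCGG was present in 19 of 33 windows of 30 collagen genes, or 57.6%, against 32.7% of 32851 windows of all genes. CCAAT was present in 12 of 33 windows (36.4%) against 33.9%, TATAAA in 5 (15.2%) against 12.4%, and AACAAT in 1 (3.03%) against 9.42%. In the 100 bases shown, GGGCGG or its complement stands in Col9a2 and Col11a1, CCAAT or its complement in Col11a1 and the internal start of Col9a1, and none of the motifs in Col1a2. A match is a description only. The counted reads come from the 3′ ends of transcripts and do not tell the 2 Col9a1 starts apart.

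Summed over all 39 genes, collagen transcripts were highest in Chondrocyte cells, at 51.7 ± 2.95 per 10000 (SD, n = 4), followed by Gut Mesenchyme/Amniotic Mesoderm at 39.0 ± 4.20 and Mesodermal Progenitor at 28.0 ± 3.0. These 3 types did not overlap with each other in any suspension. Ependymal Cell (16.4 ± 3.87) and Myoblast/Cardiomyocyte (15.8 ± 0.630) overlapped, as did Epithelial Cell (10.6 ± 1.13) and Hematoendothelial Progenitor/Endothelium (9.29 ± 3.93). Neuronal Progenitor (3.75 ± 0.229), CNS Neuron (1.80 ± 0.130), and Neuroectoderm/Glia (1.21 ± 0.194) held far fewer. Erythroblast, with 7 cells in its smallest suspension, held 1.11 ± 0.507, from 0.434 to 1.65, and overlapped with Neuroectoderm/Glia. Erythrocyte, a type not known to make collagen, held 0.245 ± 0.0638.

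As a measure of free RNA, droplets outside the deposited cell sets with 1 to 100 gene UMIs held 15.2 collagen UMIs per 10000, from 4414 collagen UMIs. Droplets with 100 to 300 gene UMIs held 24.5. Chondrocyte, Gut Mesenchyme, and Mesodermal Progenitor levels were above both droplet levels in every suspension. Myoblast/Cardiomyocyte and Ependymal Cell levels were below the second in every suspension, and Ependymal Cell overlapped with the first. The remaining 7 deep types were below both in every suspension. After each cell was thinned to 2000 UMIs, 75.0% of 296 Chondrocyte cells had a Col3a1 UMI (exact 95% interval 69.7% to 79.8%), against 1.98% of 202 red blood cells (0.54% to 4.99%). Without thinning the shares were 93.2% and 9.80%, with median depths of 11654 and 27492 gene UMIs. These intervals cover counting error only.

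**Figure D1:**
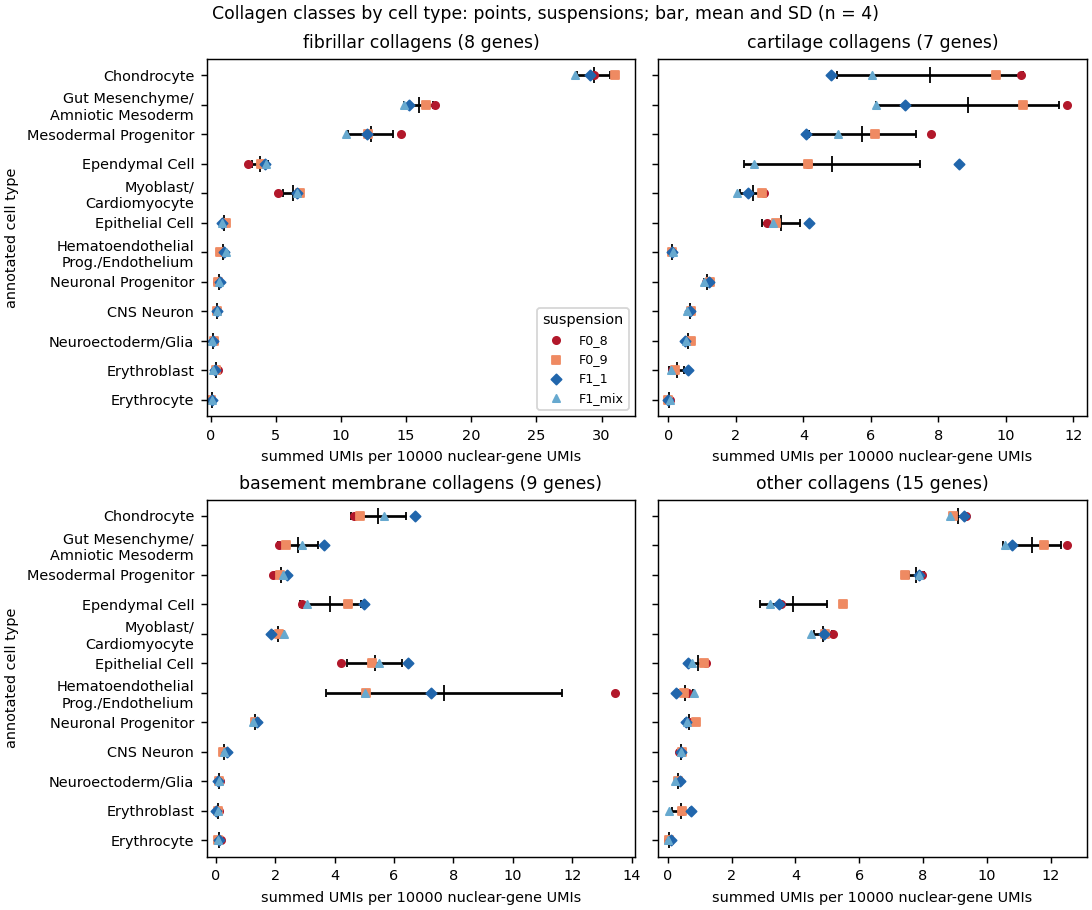
Summed level of each collagen class (x axis, UMIs per 10000 UMIs of genes outside the mitochondrial genome) in 12 annotated cell types (y axis), with 1 point per suspension and a bar for the mean ± SD of 4 suspensions. Fibrillar collagens are highest in Chondrocyte cells (29.4), cartilage and other collagens in Gut Mesenchyme (8.87 and 11.4), and basement membrane collagens in Hematoendothelial Progenitor/Endothelium (7.69), where F0_8 lies at 13.4.

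The fibrillar class was led by Chondrocyte cells at 29.4 ± 1.26 per 10000. Gut Mesenchyme followed at 15.95 ± 1.12, Mesodermal Progenitor at 12.3 ± 1.75, Myoblast/Cardiomyocyte at 6.32 ± 0.792, and Ependymal Cell at 3.79 ± 0.620. Each of these types lay above the next in all suspensions. Col3a1, the single chain of type III collagen found in soft connective tissue, was the member with the most UMIs (16703).

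In Chondrocyte cells, the level of Col3a1 was 10.4 and 9.85 in F0_8 and F0_9, and 12.7 and 11.4 in F1_1 and F1_mix. Both F1 suspensions lay above both founder suspensions. Col1a2, the second chain of type I collagen, measured 8.31, 8.57, 7.26, and 7.87 in the same order. Col1a1, the chain present in 2 copies per type I molecule, measured 7.10, 8.78, 5.38, and 5.76. Both type I chains lay higher in the founders, with no overlap, but neither Col1a2 nor Col3a1 passed the test of founders against F1 described below (adjusted p = 0.614 and 0.181, edgeR).

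Col5a1 and Col5a2 encode chains of type V collagen, which sits inside type I fibrils and sets their diameter. Col5a1 in Chondrocyte cells was 0.991, 1.16, 1.02, and 0.837 in F0_8, F0_9, F1_1, and F1_mix, and Col5a2 was 1.92, 2.08, 2.43, and 1.69. Neither set apart the generations. The level of Col5a2 in Chondrocyte cells (2.03 ± 0.312) overlapped with that in Gut Mesenchyme (1.58 ± 0.101), whereas Col1a1, Col1a2, Col3a1, and Col5a1 in Chondrocyte cells lay above every other deep type in all suspensions.

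Col5a2 took the largest share of the few fibrillar transcripts of CNS Neuron cells. It made up 59.7% of the 290 fibrillar UMIs there, against 6.85% of 10068 in Chondrocyte cells. Its level in CNS Neuron was 0.269, 0.328, 0.265, and 0.286 in the 4 suspensions, a mean of 0.287 ± 0.0288. In the droplets of 1 to 100 UMIs it was 0.601. The remaining fibrillar genes were low: Col27a1 reached 0.524 ± 0.143 and Col24a1 reached 0.207 ± 0.0865, both in Gut Mesenchyme, and Col5a3 had 26 UMIs in all.

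**Figure D2:**
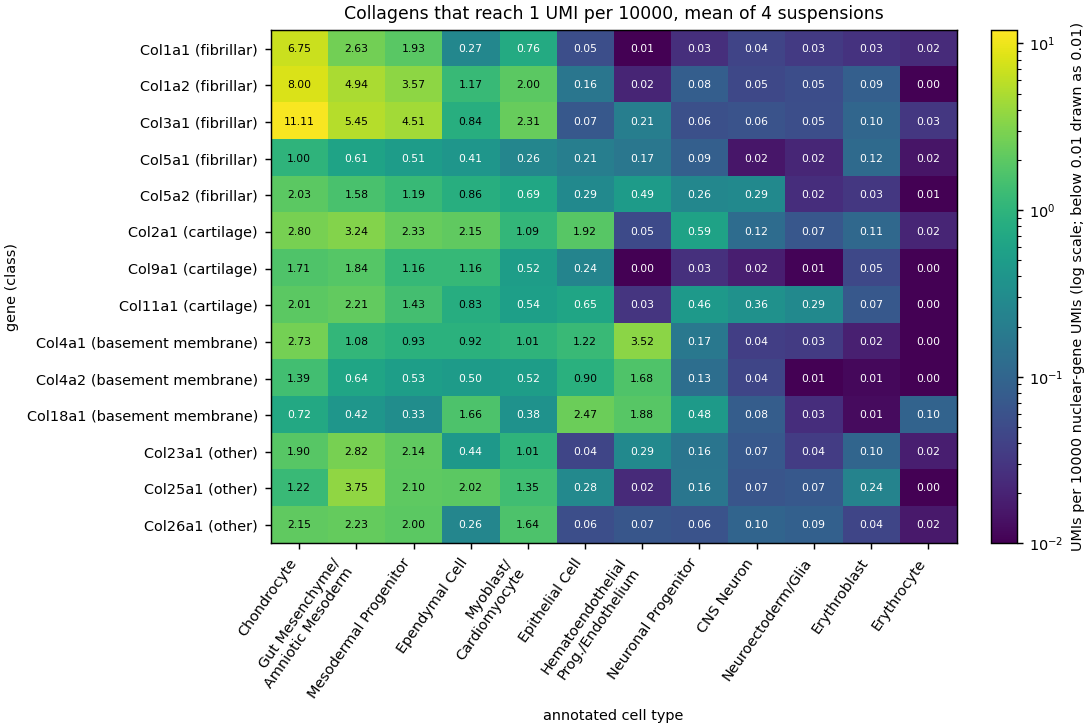
Mean level over 4 suspensions (number and color, UMIs per 10000 UMIs of genes outside the mitochondrial genome, log color scale) of the 14 collagens that reached 1 per 10000 in at least 1 of 12 cell types. Col1a1, Col1a2, and Col3a1 peak in Chondrocyte cells at 6.75, 8.0, and 11.1. The highest means of Col4a1 and Col18a1 are in Hematoendothelial Progenitor/Endothelium (3.52) and Epithelial Cell (2.47), each overlapping with other types over the suspensions.

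Cartilage collagens were spread more evenly over the mesenchymal types. The class sum was 8.87 ± 2.72 in Gut Mesenchyme, 7.75 ± 2.75 in Chondrocyte, and 5.75 ± 1.59 in Mesodermal Progenitor, and these ranges overlapped. It was 4.85 ± 2.61 in Ependymal Cell, 3.34 ± 0.568 in Epithelial Cell, and 2.50 ± 0.375 in Myoblast/Cardiomyocyte. Ependymal Cell was at 8.60 in F1_1 and 2.53 to 4.13 in the other suspensions. The notochord genes T, Shh, Noto, and Foxa2 summed to 6.30 in this type in F1_1 and to 0.632 to 2.21 in the others, and their part in the level was not tested. Unlike for the fibrillar class, Chondrocyte cells did not hold the highest mean.

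The Chondrocyte label was also checked by its markers. Summed over Sox9, Sox5, Acan, and Matn4, Chondrocyte cells ranked 4 among the 12 deep types, at 4.72 per 10000, below Gut Mesenchyme (8.31) and Mesodermal Progenitor (5.83) among others. The transcription factors SOX9 and SOX5 direct cartilage formation, and their genes were at 2.39 ± 0.761 and 2.04 ± 0.655. Acan, the core protein of the main cartilage proteoglycan, was at 0.0446, and Matn4 at 0.243. The cells carrying this label are described below by it, with the leading genes Col3a1, Col1a2, and Col1a1. Gut Mesenchyme cells held their own markers Foxf1, Barx1, Postn, and Tbx18 at a sum of 2.33, the highest of the deep types.

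Col2a1 encodes the single chain of type II collagen, the main cartilage fibril. Its highest level was in Gut Mesenchyme, at 3.91 and 3.69 in the founders F0_8 and F0_9, and 2.85 and 2.49 in F1_1 and F1_mix. It was 2.80 ± 0.988 in Chondrocyte, 2.33 in Mesodermal Progenitor, 2.15 ± 0.876 in Ependymal Cell, and 1.92 ± 0.479 in Epithelial Cell. Col2a1 was the most widespread member, reaching 1 per 10000 in 6 of the 12 deep types.

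Col11a1 encodes a chain of type XI collagen, which nucleates type II fibrils, and Col9a1 a chain of type IX collagen, which decorates their surface. In Gut Mesenchyme, Col11a1 was 2.88, 2.57, 1.77, and 1.62 in F0_8, F0_9, F1_1, and F1_mix, and Col9a1 was 2.43, 2.17, 1.53, and 1.26. For both genes the founders lay above the F1 suspensions. The partners Col9a2 (0.778 ± 0.408) and Col9a3 (0.726 ± 0.459) were also highest there.

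CNS Neuron cells held 0.335, 0.378, 0.375, and 0.345 Col11a1 UMIs per 10000, whereas Col9a1 was at 0.0181 and Col2a1 at 0.123. Droplets of 1 to 100 UMIs held Col2a1 at 1.53, Col11a1 at 0.591, and Col9a1 at 0.563, and those of 100 to 300 UMIs at 1.37, 1.58, and 0.605, so Col11a1 led in the latter as in the neurons. Col10a1, the type X collagen of hypertrophic cartilage, had 8 UMIs in all cells. Col11a2, a second chain of type XI collagen, had 182 UMIs, and Col11a1 outnumbered it 34.3 to 1 over all cells. A count at the 3′ end does not scale with transcript length, but capture can differ between genes, so such ratios are compared across cell types and not read as chain proportions.

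Basement membrane collagens were highest in Hematoendothelial Progenitor/Endothelium, at 7.69 ± 3.97. Chondrocyte cells followed at 5.47 ± 0.922, Epithelial Cell at 5.36 ± 0.924, and Ependymal Cell at 3.85 ± 1.02, and all 4 ranges overlapped with their neighbors. The first type rests on 76 cells, 15 in its smallest suspension. It also held the macrophage genes Tyrobp, Fcer1g, C1qb, and Csf1r at a sum of 37.1, between 26.1 and 55.2 in the 4 suspensions, against 8.16 for its own markers Pecam1, Cdh5, Kdr, and Emcn. The part of these cells in the collagen level was not tested. The mural cell genes Rgs5, Pdgfrb, Cspg4, and Notch3 summed to 1.88 in Chondrocyte cells, between 1.43 and 2.69 over the suspensions, against 1.36 in Gut Mesenchyme. Rgs5 was at 0.725 against 0.176 and Pdgfrb at 0.652 against 0.446, whereas Cspg4 was lower in Chondrocyte cells, at 0.0636 against 0.117, and Notch3 likewise, at 0.435 against 0.622. The 10% of Chondrocyte cells richest in Col4a1 held 63.2% of its level. The part of mural cells in the Chondrocyte level was not tested.

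Col4a1 and Col4a2 encode the 2 chains of the type IV collagen found in nearly all basement membranes. In Hematoendothelial Progenitor/Endothelium, Col4a1 was 6.42 and 2.49 in the founders F0_8 and F0_9, and 2.97 and 2.20 in F1_1 and F1_mix, and Col4a2 was 3.19, 1.18, 1.45, and 0.898. F0_8 was the highest for both genes. In Chondrocyte cells, Col4a1 was 2.53, 2.31, 3.40, and 2.69 in the same order, above the endothelial type in both F1 suspensions. The class sum in Hematoendothelial Progenitor/Endothelium was 13.4 in F0_8 and 5.01 to 7.26 in the other suspensions. The summed endothelial markers of this type were also highest in F0_8, at 13.4 against 4.73, 8.21, and 6.34 in F0_9, F1_1, and F1_mix. Their part in the difference was not tested.

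The 2 genes lie head to head on chromosome 8. Their RefSeq promoter windows, chr8:11312777-11313076 on the minus strand for Col4a1 and chr8:11312555-11312854 on the plus strand for Col4a2, overlap by 78 bases. Over all cells, there were 1.76, 1.77, 1.81, and 1.82 Col4a1 UMIs per Col4a2 UMI in F0_8, F0_9, F1_1, and F1_mix.

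Ratios by cell type are given where both genes had at least 10 UMIs in every suspension. Col4a1 to Col4a2 ranged from 1.31 in Neuronal Progenitor and 1.39 in Epithelial Cell to 1.97 in Myoblast/Cardiomyocyte and 2.10 in Hematoendothelial Progenitor/Endothelium. The 4 suspensions spanned 1.24 to 1.51 in Epithelial Cell and 2.01 to 2.45 in the endothelial type, without overlap. The type I pair varied more. Col1a1 per Col1a2 was 0.849 in Chondrocyte, 0.538 in Gut Mesenchyme, 0.527 in Mesodermal Progenitor, and 0.385 in Myoblast/Cardiomyocyte. Its range over suspensions was 0.732 to 1.02 in Chondrocyte and 0.359 to 0.401 in Myoblast/Cardiomyocyte.

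**Figure D3:**
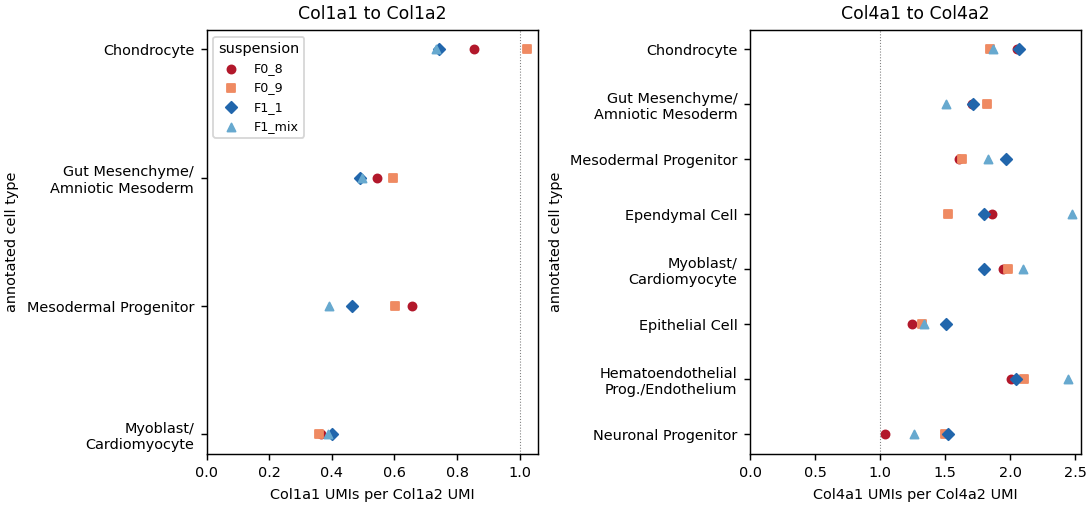
UMIs of one chain gene per UMI of its partner (x axis) in each cell type with at least 10 UMIs of both genes in every suspension (y axis), 1 point per suspension, for the type I pair on the left and the type IV pair on the right. Pooled over suspensions, Col1a1 to Col1a2 is 0.849 in Chondrocyte and 0.385 in Myoblast/Cardiomyocyte, and single points of Col4a1 to Col4a2 lie between 1.04 in Neuronal Progenitor and 2.47 in Ependymal Cell.

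Other pairs were compared over all cells. Col9a2 per Col9a3 was 1.02, with 0.923, 1.02, 1.31, and 1.10 in the 4 suspensions. Col6a1 per Col6a2 was 0.904, Col5a1 per Col5a2 0.410, and Col4a5 per Col4a6, an X-linked head-to-head pair, 4.01. Col9a1 per Col9a2 was lower in the founders, at 1.79 and 2.35, than in F1_1 and F1_mix, at 3.67 and 3.38.

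Col18a1, whose product yields endostatin, was led by Epithelial Cell, at 1.59, 2.50, 3.11, and 2.67 in F0_8, F0_9, F1_1, and F1_mix. It was 1.88 ± 0.597 in Hematoendothelial Progenitor/Endothelium and 1.66 ± 0.469 in Ependymal Cell, and the 3 types overlapped. Its relative Col15a1 was the most restricted member, at 1.28, 0.207, 0.495, and 0.155 in Hematoendothelial Progenitor/Endothelium and 0.0145 in the next type, Chondrocyte. It had only 119 UMIs in 55 cells. Col17a1, the hemidesmosome collagen, had 64 UMIs, too few to rank the types, and was at 0.206, 0.179, 0.0568, and 0.0506 in Epithelial Cell. Col4a3 had 15 UMIs, Col4a4 87, and Col7a1, which forms anchoring fibrils below the epidermis, 106.

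The class of other collagens was highest in Gut Mesenchyme (11.4 ± 0.903), then Chondrocyte (9.10 ± 0.251), and Mesodermal Progenitor (7.79 ± 0.232), and it was carried by 3 genes. Col25a1, a transmembrane collagen, was at 4.65, 4.51, 2.91, and 2.93 in Gut Mesenchyme in F0_8, F0_9, F1_1, and F1_mix. Col23a1, also transmembrane, was at 2.74, 2.0, 3.03, and 3.51. Founders were higher for Col25a1 and lower for Col23a1, in both cases without overlap, though Col23a1 did not pass the test of founders against F1 (adjusted p = 0.128, edgeR).

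Col26a1, an extracellular collagen, was the most even of the 3 genes, at 2.01, 2.24, 2.50, and 2.16 in Gut Mesenchyme. Its mean there (2.23 ± 0.205) overlapped with that in Chondrocyte (2.15 ± 0.118). The type VI genes Col6a1, Col6a2, and Col6a3, which form beaded microfibrils, were highest in Chondrocyte cells at 0.550 ± 0.131, 0.612 ± 0.0896, and 0.413 ± 0.117. Of the 15 genes, 12 stayed below 1 per 10000 in every deep type, and Col28a1 had the fewest UMIs (54).

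Expression was uneven within a type. In Gut Mesenchyme, the 10% of cells richest in Col25a1 held 58.3% of its transcript level, and the 10% richest in Col2a1 held 54.0% of that of Col2a1. The same share was 27.4% for Col1a2, 31.7% for Col3a1, and 31.4% for Col26a1. Col14a1, a fibril-associated collagen, was the most concentrated of the genes measured there, at 88.4%. The cells were ranked on the gene itself, so a share above 10% is set by the ranking, and the values are a description.

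To see which members go together, cells with at least 5000 UMIs were ranked by Col2a1 within each suspension, and the richest 10% were set against the rest. In Gut Mesenchyme, this compared 68 cells with 600. The median depth of the rich cells was 9433.5 to 13244 UMIs over the suspensions, and that of the rest 12225 to 14086. All 5 measured cartilage partners were higher in the rich cells in 4 of 4 suspensions, where 8.97% of 10652 genes were. Ranking was on Col2a1 itself, so no test was run.

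Col9a3 in the Gut Mesenchyme cells rich in Col2a1 was 8.76, 4.81, 1.88, and 2.75 in F0_8, F0_9, F1_1, and F1_mix, against 0.462, 0.638, 0.168, and 0.129 in the rest. The ratio of means was 13.0 for Col9a3, 10.3 for Col9a2, 6.83 for Col11a1, and 5.90 for Col9a1. The cartilage regulators Sox9, Sox5, and Sox6 were 5.33, 4.74, and 5.19 times as high. Acan, nearly absent in the remaining cells at 0.00823, was 0.964 in the rich cells.

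Most fibrillar genes went the other way. In Gut Mesenchyme, 5 of 7 fibrillar members were lower in the rich cells in 4 of 4 suspensions (Col1a1, Col1a2, Col3a1, Col5a2, and Col24a1), where 14.1% of all genes were. Col1a2 was 2.29, 3.53, 2.87, and 2.75 in the rich cells against 5.47, 5.26, 4.86, and 4.96 in the rest. Col5a1 was higher in 2 of 4 suspensions, and Col27a1, a fibrillar collagen known from cartilage, was higher in 4 of 4, at 2.81 times the level of the rest. Col6a3, Col8a2, Col23a1, Col26a1, and Col4a6 were also lower. Col12a1, Col13a1, and Col14a1 were higher in 4 of 4, by ratios of 2.40, 1.76, and 4.21.

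Mesodermal Progenitor cells, 51 rich and 444 remaining, were compared likewise. All 4 measured cartilage partners were higher in 4 of 4 suspensions (7.08% of 10397 genes), and Col1a2, Col3a1, and Col5a2 were lower in all (14.7%). Col1a1 was 1.56, 1.15, 0.620, and 1.38 in the rich cells against 2.98, 2.20, 1.75, and 1.14 in the rest, lower in 3 of 4. Col12a1 and Col14a1, 2 fibril-associated collagens, were higher in 4 of 4, by ratios of 3.54 and 8.43.

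In Chondrocyte cells, 31 rich and 262 remaining, the 4 measured cartilage partners were again higher in 4 of 4 suspensions (5.37% of 8195 genes), as were Col27a1, Col12a1, and Col14a1. Of the basement membrane genes, Col4a1 and Col4a2 were lower in all (12.2% of genes), at ratios of 0.318 and 0.472. No fibrillar member was lower in all. Col3a1 was lower in the rich cells of both founders, 5.30 and 3.94 against 11.1 and 10.5, and higher in those of both F1 suspensions, 17.5 and 19.5 against 12.3 and 10.6.

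Such opposite directions between founders and F1 were found for 6 of 25 collagens in Chondrocyte cells (Col1a1, Col1a2, Col3a1, Col6a1, Col6a2, and Col8a2), where 12% of all genes showed them. They were found for 0 of 29 in Gut Mesenchyme (10.2% of genes) and 1 of 27, Col4a6, in Mesodermal Progenitor (10.3%). This difference was not tested.

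**Figure D4:**
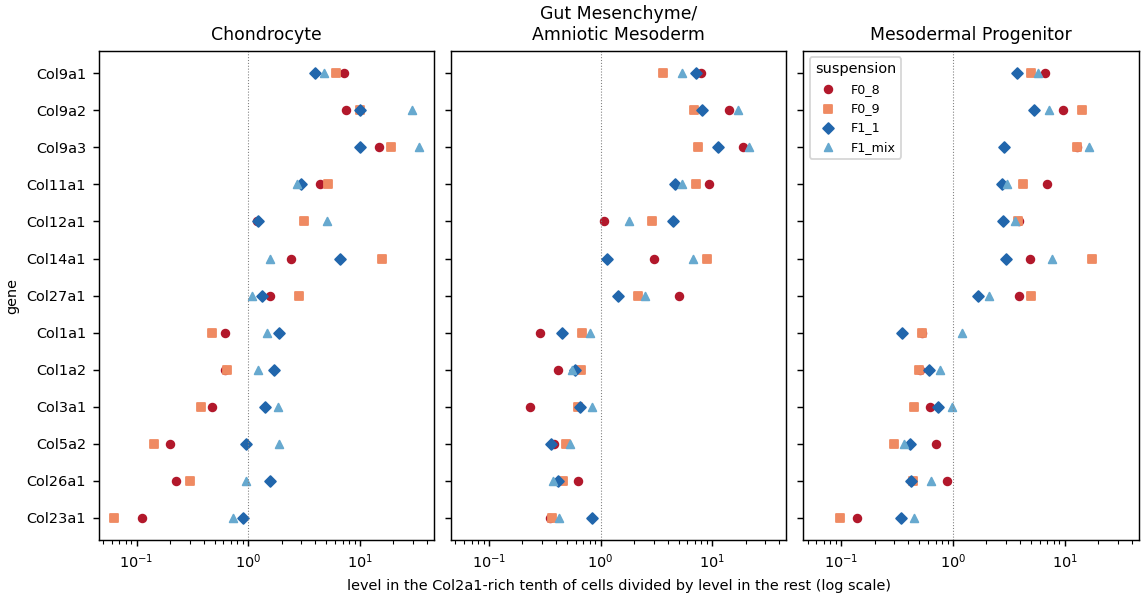
Ratio of the level in the 10% of cells richest in Col2a1 to that in the remaining cells (x axis, log scale, dotted line at 1) for 13 collagens in 3 cell types, 1 point per suspension. The type IX genes and Col11a1 lie right of 1 in every suspension, Col1a2, Col3a1, and Col5a2 left of it in Gut Mesenchyme and Mesodermal Progenitor, and in Chondrocyte cells founders and F1 fall on opposite sides for Col1a1, Col1a2, and Col3a1.

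Founder and F1 suspensions were then compared gene by gene within each of 13 cell types with at least 20 cells in every suspension, 12 of which had a collagen past the filter on low counts, using edgeR's quasi-likelihood test with Benjamini-Hochberg adjustment over all genes of the type. With 2 suspensions against 2, p-values measure only the spread between these suspensions, and generation, litter, and exact stage cannot be told apart. Of 209 collagen and cell type pairs tested, 20 passed an adjusted p of 0.05, whereas 746 of 99241 pairs of all genes did (0.752%). In the founders 18 of the 20 were higher and 2 lower, against 0.492% and 0.26% of all pairs. In Myoblast/Cardiomyocyte, where no gene of 11260 was called, 7 of 28 collagens and 1049 of all genes had an unadjusted p below 0.05 by edgeR. The calls involved 11 of the 32 collagen genes that passed the filter on low counts in some type.

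All 20 calls fell in Chondrocyte (7 of 27 collagens tested, where 1.16% of all genes were called), Gut Mesenchyme (8 of 30, 1.62%), and Mesodermal Progenitor (5 of 29, 1.07%). The cells came from the same embryos in all 3 types, so these are not independent repeats. Cartilage collagens made up 12 of the 20 calls, out of 46 pairs tested, and all 12 were higher in the founders. The median log2 fold change was 0.34 over the cartilage pairs, 0.35 over the pairs of other collagens, 0.10 over the fibrillar pairs, and -0.30 over the basement membrane pairs, against 0.00 over all genes.

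Col9a3, a chain of type IX collagen, passed in all 3 types. In Gut Mesenchyme it was 1.22 and 1.01 in F0_8 and F0_9, and 0.295 and 0.378 in F1_1 and F1_mix. The log2 fold change of founders over F1 was 1.69 ± 0.16 (SE, adjusted p = 0.0019, edgeR). In Chondrocyte cells it was 1.33 and 0.882 against 0.0788 and 0.271 (log2 fold change 2.60 ± 0.35, adjusted p = 0.0042, edgeR), and in Mesodermal Progenitor 0.80 and 0.439 against 0.144 and 0.251 (1.65 ± 0.27, adjusted p = 0.0085, edgeR). The call in Chondrocyte cells was lost with DESeq2 (adjusted p = 0.179) and without the filter on low counts (adjusted p = 0.387, edgeR), and its log2 fold change ran from 2.01 without F1_1 to 3.78 without F1_mix. The call in Mesodermal Progenitor was lost without F0_8.

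Its partner Col9a2 moved with it. In Gut Mesenchyme Col9a2 was 1.23 and 1.0 in the founders against 0.524 and 0.354 (log2 fold change 1.38 ± 0.18, adjusted p = 0.0054, edgeR). In Mesodermal Progenitor it was 0.617 and 0.513 against 0.167 and 0.276 (1.34 ± 0.21), and in Chondrocyte 0.959 and 0.737 against 0.131 and 0.436 (1.53 ± 0.34), where the adjusted p of 0.044 by edgeR stood against 0.99999 by DESeq2. The Chondrocyte call was also lost without the filter on low counts, in cells under 5% mitochondrial share, without F0_8, and without F0_9, with log2 fold changes from 0.95 to 2.67 over the alternatives. The other 2 calls were lost without F0_8.

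Col2a1 also passed in all 3 types. In Chondrocyte cells it was 3.66 and 3.62 in the founders against 1.72 and 2.21 (log2 fold change 0.87 ± 0.13, adjusted p = 0.0054, edgeR). In Gut Mesenchyme the log2 fold change was 0.50 ± 0.08, and in Mesodermal Progenitor 0.56 ± 0.12. The call in Mesodermal Progenitor was lost with DESeq2 (adjusted p = 0.109) and without F0_8, that in Gut Mesenchyme without F0_8 and without F0_9, and that in Chondrocyte without the filter on low counts. Col11a1 passed in Gut Mesenchyme (0.68 ± 0.09, adjusted p = 0.0065, edgeR) and Chondrocyte (0.71 ± 0.15, adjusted p = 0.041, edgeR), and Col9a1 in Gut Mesenchyme alone (0.73 ± 0.11, adjusted p = 0.011, edgeR). The call of Col11a1 in Chondrocyte passed under 4 of 9 alternatives, being lost with DESeq2 (adjusted p = 0.335), without the filter on low counts, in cells under 5% mitochondrial share, without F0_8, and without F1_1. The Gut Mesenchyme calls of Col11a1 and Col9a1 were lost without F0_8. How these fold changes differ between cell types was not tested.

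Outside the richest 10% of Gut Mesenchyme cells, Col9a3 was 0.462 and 0.638 in the founders against 0.168 and 0.129, and Col9a2 0.562 and 0.658 against 0.344 and 0.135. Other cartilage genes looked at were Sox9, Sox5, Sox6, Acan, Matn4, Cnmd, and Hapln1, named with earlier results of these data known. Calls in this type, where 1.62% of all genes were called, are given for some of them. Results for Acan, Cnmd, and Hapln1, and for the other cell types, are not given. Sox9 was 3.99 and 4.0 against 2.31 and 2.39 (log2 fold change 0.75 ± 0.07, adjusted p = 0.0018, edgeR), and Sox5, Sox6, and the matrix gene Matn4 were higher by log2 fold changes of 0.58, 0.95, and 1.74 (adjusted p = 0.015, 0.0042, and 0.027, edgeR).

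Outside the cartilage class, Col1a1, Col25a1, Col8a1, Col14a1, Col12a1, and Col18a1 were called. These were 2 of 50 fibrillar pairs, 2 of 40 basement membrane pairs, and 4 of 73 pairs of other collagens, against 0.752% of all pairs. Col1a1 was higher in the founders in Mesodermal Progenitor, at 2.82 and 2.09 against 1.64 and 1.17 (log2 fold change 0.81 ± 0.15, adjusted p = 0.019, edgeR), and in Chondrocyte (0.50 ± 0.10, adjusted p = 0.033, edgeR). Both calls were lost with DESeq2 (adjusted p = 0.897 and 0.0792), the first also without F0_8, and the second without F0_9, without the filter on low counts, and in cells under 5% mitochondrial share. Its partner Col1a2 passed in no type. Col25a1 in Gut Mesenchyme was higher by 0.63 ± 0.07 (adjusted p = 0.0021, edgeR), and Col8a1, a short-chain network collagen, by 1.23 ± 0.24 (adjusted p = 0.037, edgeR), at 0.473 and 0.411 against 0.251 and 0.141. The call of Col8a1 was lost with DESeq2 (adjusted p = 0.154), without F0_8, without F0_9, and without F1_mix.

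The fibril-associated Col14a1 in Chondrocyte cells was 0.588 and 0.592 in the founders against 0.197 and 0.165 (log2 fold change 1.69 ± 0.27, adjusted p = 0.0093, edgeR), and Col12a1 there was 1.05 and 0.972 against 0.486 and 0.566 (0.92 ± 0.19, adjusted p = 0.035, edgeR). Col18a1 was the only collagen called lower in the founders. In Gut Mesenchyme it was 0.244 and 0.274 in the founders against 0.479 and 0.670 (log2 fold change -1.20 ± 0.19, adjusted p = 0.013, edgeR), and in Mesodermal Progenitor 0.197 and 0.240 against 0.485 and 0.379 (-1.0 ± 0.20, adjusted p = 0.030, edgeR). The call in Mesodermal Progenitor was lost with DESeq2 (adjusted p = 0.513), and both were lost without F0_8 and without F0_9, the former also without F1_1. In Chondrocyte cells, the calls of Col14a1 and Col12a1 were also lost with DESeq2 (adjusted p = 0.191 and 0.699) and without the filter on low counts, and that of Col12a1 in cells under 5% mitochondrial share, without F0_8, and without F0_9.

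The calls depended on the test and on single suspensions. DESeq2 called 10 of the 20 pairs. Without F0_8, edgeR called 9 collagen pairs, 6 of them among the 20, and without F1_mix it called 32. Col9a3 and Col25a1 in Gut Mesenchyme passed under all 9 alternatives. Col25a1 was not called in Mesodermal Progenitor (log2 fold change 0.41 ± 0.15) or in Chondrocyte, where it went the other way (-0.54 ± 0.20).

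**Figure D5:**
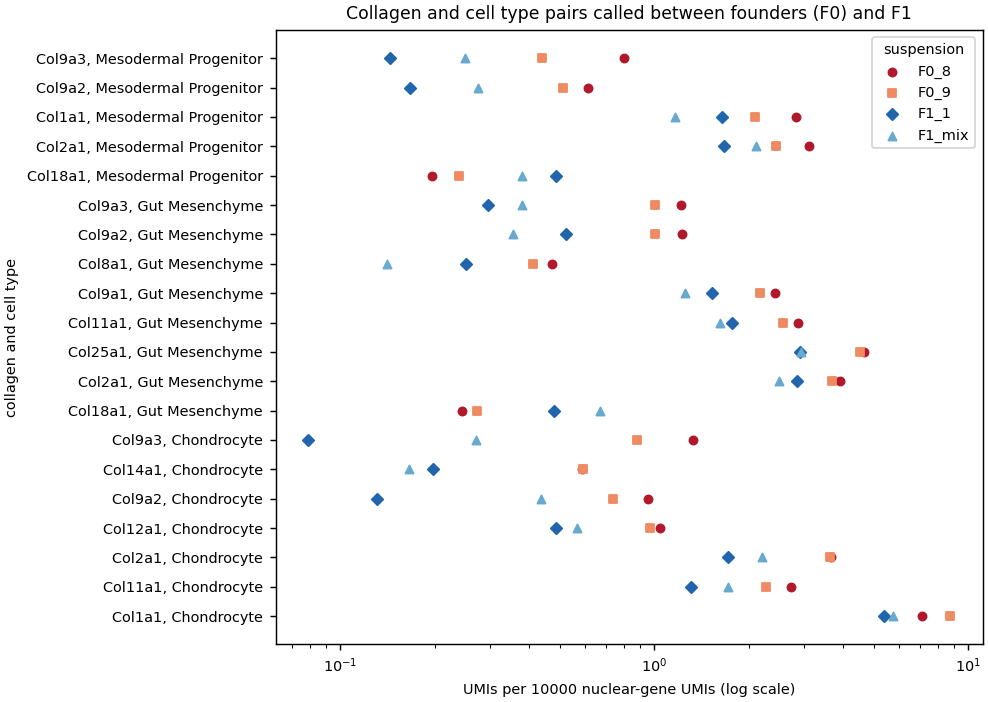
Level (x axis, UMIs per 10000 UMIs of genes outside the mitochondrial genome, log scale) of the 20 collagen and cell type pairs with an adjusted p below 0.05 between founders (red) and F1 suspensions (blue), 1 point per suspension. Founder points lie right of the F1 points in 18 pairs and left of them for Col18a1 in Gut Mesenchyme and Mesodermal Progenitor.

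Genes that fold, process, and bind collagen were compared in the same way, where 0.752% of all pairs were called and 10081 of 99241 had an unadjusted p below 0.05. Of 20 genes of hydroxylation and folding, 14 were highest in Chondrocyte cells. Serpinh1, the collagen chaperone HSP47, was at 12.5 ± 0.856 there, Ppib, a proline isomerase, at 10.7 ± 0.462, and Sparc, a collagen-binding matricellular protein, at 9.07 ± 0.753. None of the 156 pairs of this list was called between founders and F1 by edgeR, 19 having an unadjusted p below 0.05.

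Among 12 genes of processing and cross-linking, 6 were highest in Chondrocyte cells, led by Pcolce, the enhancer of procollagen C-proteinase, at 1.74 ± 0.265. One of 58 pairs was called, Pcolce2 in Gut Mesenchyme (0.166 and 0.10 against 0.0295 and 0.0243, log2 fold change 2.33, adjusted p = 0.037, edgeR). Of 11 collagenases and receptors, 4 were highest in Hematoendothelial Progenitor/Endothelium, among them Itgb1, the shared integrin subunit, at 3.12 ± 0.643. Mmp9, also among them, was at 0.042 ± 0.084, from 0 to 0.168 over the suspensions. The share of all genes highest in each type is not given, so these counts of highest types describe the lists alone. The receptor Ddr1 was highest in CNS Neuron (2.20 ± 0.072) and Ddr2 in Gut Mesenchyme (1.58 ± 0.069). None of 66 pairs was called by edgeR, 6 having an unadjusted p below 0.05.

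Over the 12 deep types, the pattern of Col1a1 was most like those of Islr, Pcolce, Lum, Foxd1, and Lama2 among 3970 genes (Pearson r of log2 levels from 0.987 to 0.968). Col6a1 was most like Lum, Islr, Cxcl12, Pcolce, and Foxc1 (0.981 to 0.958). Col2a1 was closest to Sdc2, Eda, Plod2, Slc1a3, and Gpc3 (0.971 to 0.959), Col9a1 to Dkk2, Tpd52l1, Ednra, Fibin, and Lrig3 (0.974 to 0.954), and Col4a1 to Cmtm3, Rbpms, Tmem176a, Itgb5, and Egr1 (0.968 to 0.957). Islr, Lum, and Pcolce were shared by the first pair, and no gene by Col1a1 and Col2a1. The points share 1 library and the same 4 suspensions, and 12 types are few for 3970 genes.

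Among the shallow types, all collagens together reached 31.1 ± 7.61 UMIs per 10000 in Endodermal Progenitor, 11.8 ± 1.37 in Foregut, and 8.24 ± 1.39 in Midgut, on 325, 329, and 239 collagen UMIs. The shallow type labeled Hepatocyte held 55.9 ± 3.84 collagen UMIs per 10000, as much as Chondrocyte cells. The summed level of the liver transcripts Alb, Afp, Apoa1, and Apoa2 was 0.0253 there, with Afp at 0. Col23a1 reached 6.04 there, Col25a1 5.90, Col1a2 5.23, Col3a1 5.18, and Col26a1 4.82.

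Compared with the mean of Chondrocyte, Gut Mesenchyme, and Mesodermal Progenitor, the ratio in these cells moved with gene length. Among members with at least 30 UMIs in those 3 types, the 20 genes longer than 100 kb had a median ratio of 1.95, and 17 of them lay above 1. The 14 shorter genes had a median of 0.914, and 6 lay above 1. Col25a1, 420 kb long, was at 2.51 and Col23a1, 294 kb long, at 2.64, whereas Col3a1 (38.2 kb) was at 0.738 and Col9a1 (75.2 kb) at 0.478. The highest ratios among short genes were those of Col7a1 and Col11a2, at 7.41 and 3.88, on 16 UMIs each. These cells had a median of 1674 gene UMIs and 23.0% mitochondrial transcripts, and the part of either in the ratio was not tested.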

How the data were processed

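The deposited files held UMI counts per gene and cell for 4 suspensions, made by the authors with Cell Ranger (7.2.0 in the file headers) on the mouse genome GRCm38 with EGFP, and a table of their cell type labels. Intron counting is not stated there. The counts carry no correction for free RNA or noise, and doublets were treated only as far as the authors' table had dropped cells after DoubletFinder: 5678 of 6006 barcodes were used. The stated limit of 5% mitochondrial transcripts did not hold in the table, where 1410 cells were at or above it. UMIs were summed per label and suspension (1310 to 1599 cells, 16052917 to 19160116 gene UMIs) and divided by UMIs outside the 13 mitochondrial genes. A type was called shallow when its median depth was below that of all cells (12072) divided by 3. Founders were tested against F1 with edgeR 4.0.16 (glmQLFit, glmQLFTest, filterByExpr) on all genes of each type, with DESeq2 1.42.0 as an alternative in R 4.3.3, and fold changes are founders over F1. The test was checked on simulated counts. Alternatives covered size factors, filters, cell minimums, mitochondrial share, denominators, thinning, and leaving out suspensions. Members with a mean level of 1 per 10000 in a deep type and members called between generations were given with their values. The members and gene lists were chosen with earlier results of these data known. Of the cell table, 20 other columns were not used. The marker check of 1 deep type is not reported here.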

Additional observations from a re-analysis of the deposited data

Results flagged for a closer look

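In Chondrocyte cells, the 10% richest in Col2a1 lay on one side of the remaining cells in both founders and on the other in both F1 suspensions for 6 collagens. Averaged over the 4 suspensions, the ratio of rich cells to the rest was therefore near 1 for Col1a1 (0.972), Col1a2 (0.998), Col3a1 (1.04), and Col6a1 (1.11), 0.799 for Col6a2, and 2.02 for Col8a2. The rich cells were 31 in all. In Mesodermal Progenitor, Col4a6 showed such a split at a ratio of 0.538, on 63 UMIs. The difference between generations was not tested. With the richest 20% of cells, a choice made after seeing the data, 5 of 25 collagens showed such a split in Chondrocyte cells, and of the 6 genes above these included Col1a1 and Col3a1 only, where 12.2% of 8195 genes showed it. The split was then seen for 2 of 29 collagens in Gut Mesenchyme (10.9% of genes) and 3 of 27 in Mesodermal Progenitor (11.3%).

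Of 59 levels checked over the 4 suspensions, 4 had a suspension far from the other 3, where chance gives about 1 in 20. The summed fibrillar collagens in Myoblast/Cardiomyocyte were 5.15 in F0_8, below the rest. The summed cartilage collagens in CNS Neuron were 0.544 in F1_mix, also below. The other collagens were 5.49 in F0_9 in Ependymal Cell, above the rest, and 7.44 in F0_9 in Mesodermal Progenitor, below it.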

How the results depend on the processing

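No paired analysis was possible because founder and F1 suspensions share no replicate numbers. The number of collagen pairs called was 20, and it was 35 without a filter on low counts and 10 with DESeq2. Leaving out 1 suspension gave 9 (without F0_8) to 32 (without F1_mix), the lone suspension being assumed to vary like the others. All pairs called went from 746 to 3154 without the filter and 421 with DESeq2, and to between 511 (without F0_8) and 1585 (without F0_9) when 1 suspension was left out. No called collagen pair changed direction under any of the 9 alternatives. Of the 20 pairs, 14 lost their call without F0_8, 7 without F0_9, 2 without F1_1, and 1 without F1_mix. The summed levels of the 4 classes were checked in their highest types with 20 or more cells in every suspension. For the basement membrane class this was Chondrocyte, and its level in Hematoendothelial Progenitor/Endothelium was not checked. All 4 levels moved by less than 1 SD under every alternative. Leaving out 1 of 4 suspensions cannot move their mean by 1 SD, so those alternatives could not show a change. The Col2a1-rich comparison rests on 31 to 68 rich cells a type, and members under 100 UMIs allow no ranking of types. With the richest 20% of cells, all measured cartilage partners stayed higher in 4 of 4 suspensions in each type. Col27a1, Col12a1, and Col14a1 then did not in Chondrocyte, nor did Col12a1 and Col13a1 in Gut Mesenchyme.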
